A study of Homo sapiens with 12 samples.

Results

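A set of 9 genes was followed that had been chosen for a response to doxorubicin that differed between siNT and siMLK4 cells, although 4 of them did not pass the thresholds for that difference in the fit used here. The genes are PADI2, KIT, RASSF10, GPR153, ADARB2, AADAC, AADACP1, ARC and ARL14, and they are 9 of the 17013 genes of the table, where all 9 were found by their Ensembl gene IDs. They were chosen by a value of these same libraries, the difference of doxorubicin responses, the response in siMLK4 cells minus that in siNT cells, so this difference and the comparisons between single groups that make it up are given for them as a description. Where the fit across all genes called some of the 9 in these comparisons, the count stands beside the share of all genes and is no independent evidence. mRNA was sequenced from HCC1806, an established triple-negative breast cancer cell line, in 4 groups of 3 libraries. The siNT vehicle and siNT doxorubicin groups received a non-targeting siRNA, and the siMLK4 vehicle and siMLK4 doxorubicin groups received a pool of 4 siRNAs against MLK4. Doxorubicin was given at 1 μM for 24 h, and the vehicle groups are labelled DMSO, with t0 in their titles against t24, while the study's methods call these cells untreated. The descriptions of siMLK4 doxorubicin replicates 2 and 3 end in the same library suffix, and since their reads differed by more than sampling noise (chi-square of 25.95 per degree of freedom) they were kept as separate libraries. All 4 groups came from the same line, and every group was transfected. The replicates are separate transfections of 1 line. P-values set differences between groups against the spread among libraries of the same group, which may be technical. The libraries held between 16759025 and 19302248 reads.

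Doxorubicin is a topoisomerase II poison that leaves breaks in DNA, and MLK4 is a mixed lineage kinase, of a family that can feed into JNK, p38 and NF-κB signalling. The 9 genes belong to no single pathway. They encode cell surface receptors, small GTPase and Ras-association proteins, a protein-modifying enzyme, an esterase with its pseudogene neighbour, an RNA-binding relative of the RNA editing enzymes and a product of immediate early transcription in neurons. The line was checked against markers of its type. The basal and epithelial markers KRT5, KRT14, KRT17, KRT6A, TP63, EGFR, EPCAM and CDH1 all had reads, with KRT5 at 226 RPKM (reads scaled to exon length and to the library total), while the oestrogen receptor gene ESR1 was at 0.304 and the progesterone receptor gene PGR at 0.0255. The ERBB2 gene was at 9.25 RPKM. Of the markers of other cell types, 1 of 4 leukocyte genes was in the table (PTPRC, 0.0429), 1 of 3 endothelial genes (VWF, 0.208) and 2 of 4 fibroblast genes (COL1A1, 2.32, and LUM, 1.81).

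The target of the siRNAs was read first. MAP3K21, the gene encoding MLK4, had 553, 669.6 and 674 normalized reads, which are reads divided by the size factor of the library, in siNT vehicle and 103, 94.7 and 88.7 in siMLK4 vehicle. With doxorubicin it had 758, 856 and 772 in siNT and 113, 138 and 94.3 in siMLK4 cells. The siRNA groups did not overlap, and siMLK4 left 15.1% of the siNT mean with vehicle and 14.5% with doxorubicin. The 4 siRNAs of the pool are shown because short matches to them are looked for in the 9 genes further on. They are written as sense strands, 5′ to 3′, from the siRNA list of the study, and the capitals mark the 7 bases that pair with bases 2 to 8 of the antisense strand, the seed. The 19 bases before the overhang of each were found in the MAP3K21 transcript.
siMLK4 siRNA 1: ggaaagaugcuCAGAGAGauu
siMLK4 siRNA 2: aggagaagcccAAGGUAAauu
siMLK4 siRNA 3: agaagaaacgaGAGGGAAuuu
siMLK4 siRNA 4: agaacagauugCAAAGAAauu

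Of the 9 genes, 8 had all 3 siNT doxorubicin libraries above all 3 siNT vehicle libraries, and GPR153 had them below, while 32% of all 17013 genes had them above and 30.4% below. These patterns follow from the choice of the genes, and the shares of all genes are given for scale. In such bulk RNA, fewer cells that express a gene and less RNA per cell cannot be told apart. In siMLK4 cells the same comparison split the genes into 3 with doxorubicin above vehicle (PADI2, RASSF10 and ARL14), 3 with doxorubicin below (KIT, ADARB2 and AADACP1) and 3 whose ranges overlapped (GPR153, AADAC and ARC), against 33.4%, 30.5% and 36.2% of all genes. With doxorubicin, siMLK4 libraries lay below siNT libraries for 7 genes (21.1% of all genes), and the ranges of KIT and GPR153 overlapped (56.1%). With vehicle, siMLK4 libraries lay above siNT for KIT alone, below for GPR153, AADAC, AADACP1 and ARC, and overlapped for the other 4, against 19.7%, 18% and 62.2% of all genes. Thus for 7 of the 9 the 3 siNT doxorubicin libraries stood above the other 9, as in 6.02% of all genes, whereas KIT was highest in siMLK4 vehicle cells and GPR153 in siNT vehicle cells (6.84% and 8.62% of all genes). The mitochondrial share of reads was 3.84 to 4.75% in the siMLK4 doxorubicin libraries and 1.74 to 3.66% in the other 9, and the size factors were also highest in the siMLK4 doxorubicin libraries, 1.10 to 1.20, against 0.852 to 1.08 in the others. The part of these library properties in the results was not tested.

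**Figure D1:**
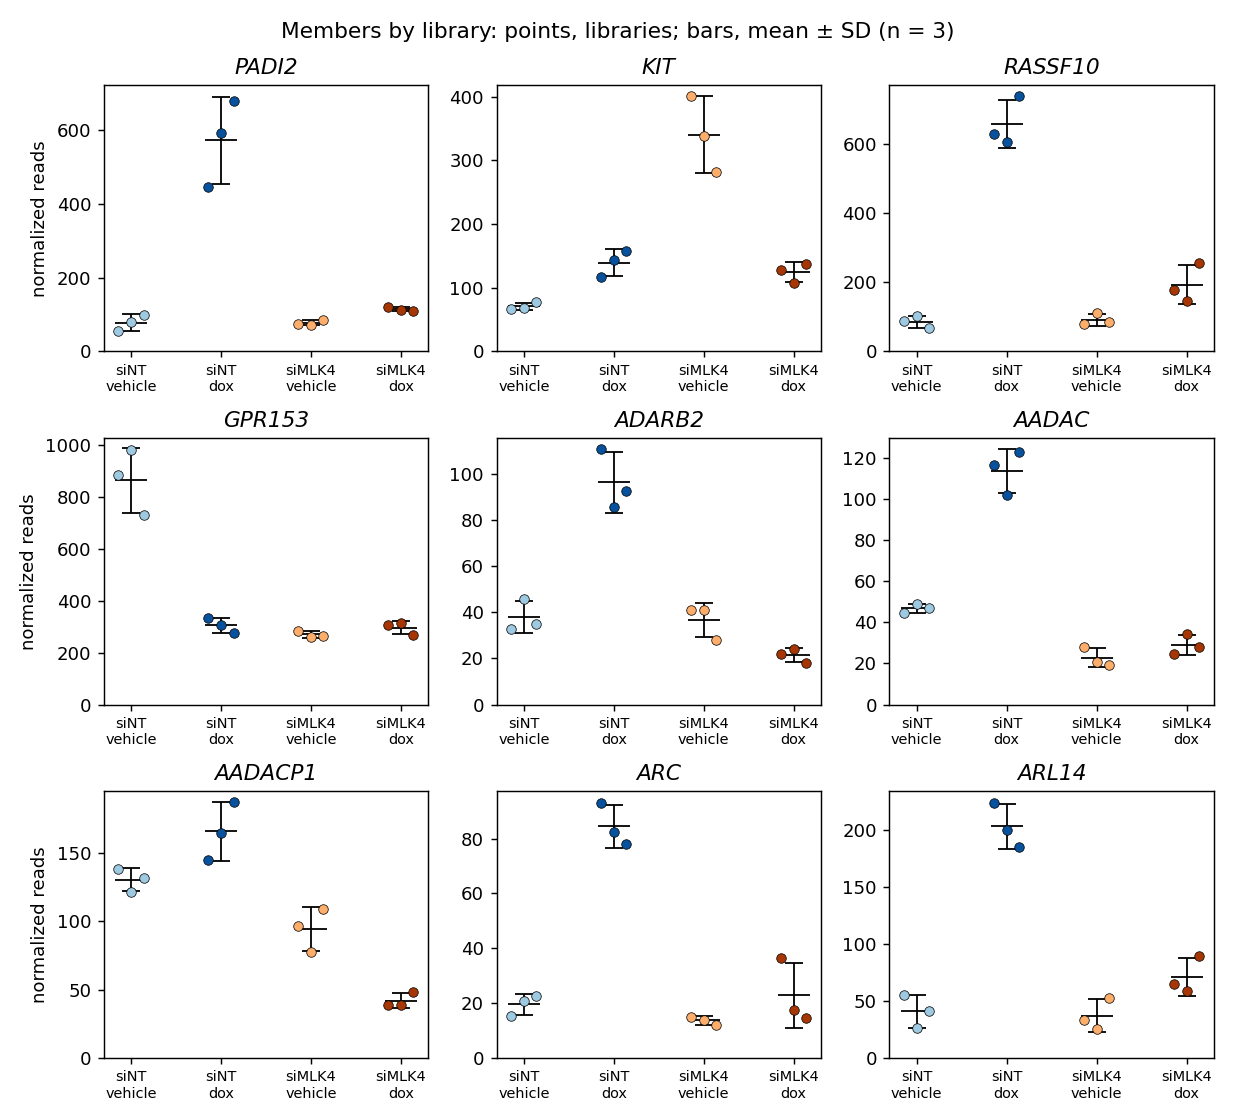
Normalized reads (y axis, linear, from 0) of each of the 9 genes in the 4 groups (x axis), with 1 point per library and bars for the mean ± SD (n = 3). In 7 panels the highest points are those of siNT doxorubicin, while KIT peaks in siMLK4 vehicle, at 281 to 402, and GPR153 in siNT vehicle, at 731 to 980.

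KIT and GPR153 are the receptors among the 9. KIT (ENSG00000157404) encodes the receptor tyrosine kinase for stem cell factor and marks progenitor cells of the mammary epithelium. Its position in GRCh38 is chr4:54657267-54740783, + strand. KIT had 66.9, 68.5 and 77.5 normalized reads in siNT vehicle and 117, 144 and 158 in siNT doxorubicin libraries. In siMLK4 cells it had 402, 338 and 281 with vehicle and 128, 108 and 138 with doxorubicin. The vehicle libraries of siMLK4 cells stood above all others, and the doxorubicin libraries of the 2 siRNA groups overlapped. Doxorubicin libraries thus had 1.97-fold the KIT level of vehicle libraries in siNT cells and 36.6% of it in siMLK4 cells, and the difference of responses was -1.83 (SE 0.19) on the variance-stabilized log2 scale. That is the scale of the values used in the fit, and it is close to log2 of the normalized reads for abundant genes but compresses changes of genes with few reads. With vehicle alone, siMLK4 cells had 4.79-fold the KIT level of siNT cells.

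GPR153 (ENSG00000158292), an orphan receptor of the rhodopsin-like G protein-coupled class, spans chr1:6247353-6261098 (GRCh38, - strand). Its libraries showed 883, 980.0 and 731 normalized reads in siNT vehicle and 335, 306 and 278 in siNT doxorubicin libraries. In siMLK4 cells there were 284, 262 and 265 with vehicle and 307, 315 and 267 with doxorubicin. All 9 libraries that had received doxorubicin, siMLK4 or both lay between 262 and 335, below every siNT vehicle library. Doxorubicin left 35.4% of the vehicle level in siNT cells, and in siMLK4 cells, which stood at 31.3% of the siNT level already with vehicle, the doxorubicin libraries were 1.10-fold the vehicle mean. GPR153 was the 1 gene of the 9 with a positive difference of responses, 1.46 (SE 0.17).

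RASSF10 and ARL14 encode a protein that can bind Ras-type GTPases and a small GTPase. RASSF10 (ENSG00000189431), a Ras-association domain protein known as a candidate tumour suppressor, is found at chr11:13009316-13012119 (GRCh38, + strand). There were 88.1, 103 and 68.5 normalized reads in siNT vehicle and 630.3, 606 and 738 in siNT doxorubicin libraries. With siMLK4 there were 78.2, 111 and 85.4 in vehicle and 179, 145 and 256 in doxorubicin libraries. Doxorubicin libraries stood above vehicle libraries in both siRNA groups, by 7.61-fold in siNT and 2.12-fold in siMLK4 cells, and the vehicle groups overlapped. The difference of responses was -1.62 (SE 0.23).

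ARL14 (ENSG00000179674) encodes an ARF-like small GTPase linked to the transport of MHC class II vesicles in dendritic cells. The gene spans chr3:160677160-160678448 (GRCh38, + strand). ARL14 had 55.2, 25.9 and 41.5 normalized reads in siNT vehicle and 224, 200.5 and 186 in siNT doxorubicin libraries. The siMLK4 libraries had 33.1, 24.9 and 53.0 with vehicle and 64.4, 58.4 and 89.8 with doxorubicin. As for RASSF10, doxorubicin stood above vehicle in both siRNA groups and the vehicle groups overlapped, with fold values of 4.98 in siNT and 1.92 in siMLK4 cells, and the difference of responses was -1.03 (SE 0.24).

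PADI2 and AADAC encode enzymes, and AADACP1 is a pseudogene beside AADAC. PADI2 (ENSG00000117115) encodes a calcium-dependent peptidylarginine deiminase, which turns arginine of proteins, histones among them, into citrulline. In GRCh38 the gene spans chr1:17066761-17119451 (- strand). PADI2 had 54.0, 78.9 and 99.9 normalized reads in siNT vehicle and 444, 590.4 and 678 in siNT doxorubicin libraries. Cells with siMLK4 had 75.1, 71.7 and 85.4 with vehicle and 119.6, 113 and 111 with doxorubicin. The doxorubicin libraries of siNT cells lay far above the rest, at 7.36-fold the vehicle mean, and those of siMLK4 cells lay above all vehicle libraries by less, at 1.48-fold. The difference of responses was -1.93 (SE 0.22), the second in absolute size among the 17013 genes, and KIT held the fourth, RASSF10 the ninth and GPR153 rank 18. The ranks of the others were 71 for ADARB2, 129 for ARL14, 168 for AADACP1, 261 for ARC and 723 for AADAC.

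AADAC (ENSG00000114771) encodes arylacetamide deacetylase, an esterase of the endoplasmic reticulum best known from liver, where it hydrolyses drugs and lipids. It spans chr3:151814073-151828488 (GRCh38, + strand). AADAC had 44.6, 48.8 and 47.1 normalized reads in siNT vehicle and 116, 102 and 123 in siNT doxorubicin libraries. In siMLK4 cells it had 28.1, 20.9 and 19.5 with vehicle and 24.6, 34.2 and 28.1 with doxorubicin. Every siMLK4 library lay below every siNT library. The fold with doxorubicin was 2.42 in siNT and 1.27 in siMLK4 cells, where the ranges overlapped, and the difference of responses was -0.66 (SE 0.15).

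AADACP1 (ENSG00000240602), a transcribed unprocessed pseudogene, lies 29.7 kb before AADAC on the same strand, at chr3:151770474-151784421. Counted for it were 139, 122 and 131 normalized reads in siNT vehicle and 145, 165 and 188 in siNT doxorubicin libraries. The siMLK4 counts were 96.2, 77.7 and 109 with vehicle and 39.0, 38.4 and 48.1 with doxorubicin. None of the 4 ranges overlapped, the order from high to low being siNT doxorubicin, siNT vehicle, siMLK4 vehicle and siMLK4 doxorubicin. Doxorubicin libraries were at 1.27-fold the vehicle mean in siNT cells and at 44.3% of it in siMLK4 cells, and the difference of responses was -0.97 (SE 0.17). The AADAC and AADACP1 transcripts were 80.7% identical over 1187 aligned bases and shared 1 stretch of 50 bases, so that few reads could fit both. All 1144 stretches of 50 bases of AADACP1 also occur in a second gene model of the same name, a long noncoding RNA (ENSG00000291076) that was not among the 17013 genes, and reads of these models cannot be told apart.

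ADARB2 (ENSG00000185736) encodes ADAR3, which binds double-stranded RNA, has no known editing activity and is best known from brain. Its long locus is chr10:1177313-1737525 (GRCh38, - strand). ADARB2 had 32.9, 45.7 and 34.8 normalized reads in siNT vehicle and 111, 85.5 and 92.3 in siNT doxorubicin libraries. In siMLK4 cells it had 41.1, 40.9 and 28.1 with vehicle and 22.1, 24.2 and 18.1 with doxorubicin. Vehicle groups overlapped, and the doxorubicin groups stood on opposite sides of them, at 2.55-fold the vehicle mean in siNT cells and 58.5% of it in siMLK4 cells. The difference of responses was -1.15 (SE 0.17). An annotated noncoding RNA, ENSG00000282390, overlaps ADARB2 on the same strand. Of 10492 stretches of 50 bases of ADARB2, 15 occurred in other genes, TAF9 and SP4, and none was found in this RNA.

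ARC (ENSG00000198576) encodes a cytoskeleton-associated protein related to retrotransposon Gag that neurons make within minutes of stimulation. It spans chr8:142611049-142614479 (GRCh38, - strand). ARC had 15.3, 20.8 and 22.4 normalized reads in siNT vehicle and 93.2, 82.5 and 78.1 in siNT doxorubicin libraries. Among siMLK4 libraries there were 15.0, 13.9 and 11.9 with vehicle and 36.5, 17.5 and 14.5 with doxorubicin. The siNT doxorubicin libraries stood above all others, and of the siMLK4 doxorubicin libraries replicate 1 was the highest. The fold with doxorubicin was 4.34 in siNT and 1.68 in siMLK4 cells, and without that library the mean of the other 2 was 16.0, or 1.18-fold. The difference of responses was -0.86 (SE 0.19).

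**Figure D2:**
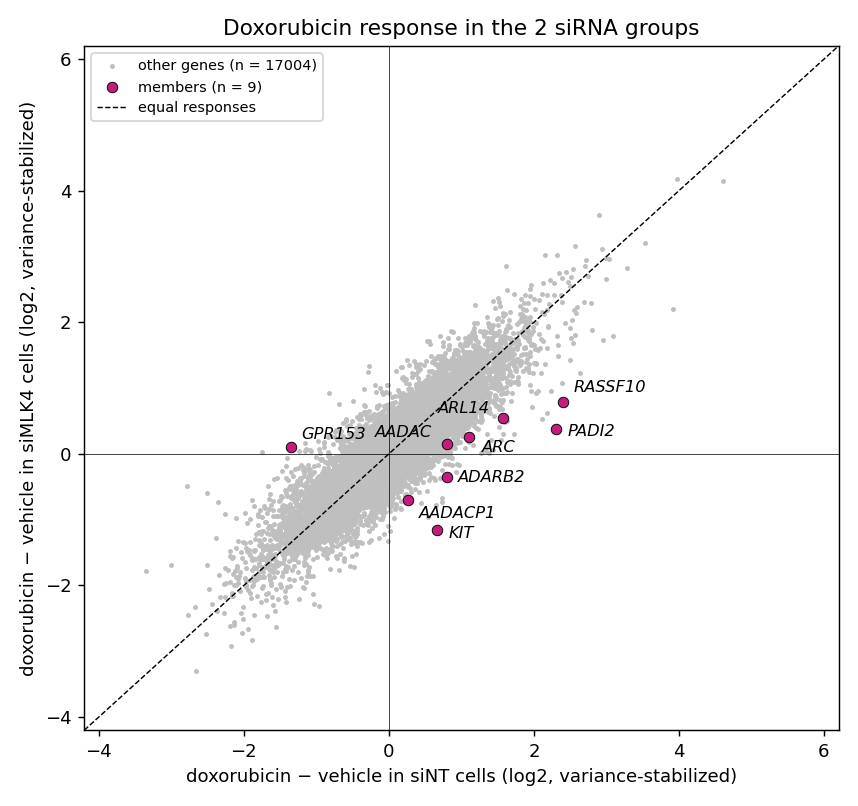
Doxorubicin minus vehicle in siNT cells (x axis) against the same in siMLK4 cells (y axis), both as log2 differences of variance-stabilized group means (n = 3 libraries a group), for 17013 genes, with the 9 genes in colour and a dashed line of equal responses. Of the 9 genes, 8 lie below the line and GPR153, at -1.35 and 0.11, lies above it.

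How common such responses were among all genes is given by the calls of the fit across the table, which asked for a log2 change of more than 0.75 in size with an adjusted p below 0.01. The difference of responses was called for 47 of 17013 genes, 0.276%, of which 17 were higher in siMLK4 cells (0.0999%) and 30 lower (0.176%). Among them were 5 of the 9 genes, GPR153 higher and PADI2, KIT, RASSF10 and ADARB2 lower, which follows from their choice. AADAC, AADACP1, ARC and ARL14 did not pass. Of the 9, the count was 4 with a replicate block, where RASSF10 was lost, 4 with log2(normalized reads + 1), 3 with limma-voom, 6 with library totals, 0 without siMLK4 doxorubicin replicate 1 and 3 to 5 without each other library. The count of 47 depended on single libraries, falling to 0 without siMLK4 doxorubicin replicate 1 (2469 genes were under an unadjusted p of 0.05 with all libraries) and to between 6 and 37 without each other library in turn.

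In siNT cells doxorubicin raised 12.1% of all genes and lowered 10.6%, and 6 of the 9 were called higher and 1 lower, leaving out KIT and AADACP1. For siMLK4 cells the shares were 12.6% higher and 10.6% lower, and of the 9 only RASSF10 was called higher and KIT lower. Between siRNA groups with vehicle, 2.51% of all genes were called higher in siMLK4 cells and 3.14% lower, and of the 9 these were KIT and GPR153. With doxorubicin the shares were 2.66% higher and 2.93% lower, and 7 of the 9 were called lower. These comparisons share libraries with the difference that chose the genes, and nothing is read from the counts. The split of all genes depended on the scaling. With library totals the median of all genes moved to 0.18 for doxorubicin in siNT, 0.16 in siMLK4 cells and 0.11 for siMLK4 with vehicle, from 0.01, 0.02 and 0.01, and the shares became 16.7% higher and 6.43% lower for doxorubicin in siNT, 17% and 7.49% in siMLK4 cells, 3.71% and 2.03% for siMLK4 with vehicle, and 3.66% and 2.33% with doxorubicin.

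The average effects are also given as a description, without p-values. Their estimates are uncorrelated with the difference of responses in this balanced fit, but a gene that stands apart in a single group moves all 3 contrasts together, and then its averages restate the difference that chose it. Averaged over the siRNAs, doxorubicin levels were called higher for PADI2, RASSF10 and ARL14, that is 3 of the 9, while 12% of all genes were called higher and 10.4% lower (16.5% and 6.65% with library totals). The average change was 1.35 on the log2 scale for PADI2 (SE 0.11), 1.59 for RASSF10 (SE 0.12) and 1.06 for ARL14 (SE 0.12). These calls held in each of the 12 fits without 1 library, which is no independent evidence either. For ARC, AADAC, ADARB2, AADACP1, KIT and GPR153 the average change was under the size threshold, from -0.62 for GPR153 to 0.68 for ARC. ARC passed with library totals (0.77), log2(normalized reads + 1) (1.34) and limma-voom (1.36), and AADAC (0.48) passed with the latter 2, at 0.80 in both.

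Averaged over treatments, siMLK4 levels were called lower for 5 of the 9, PADI2, RASSF10, GPR153, AADAC and AADACP1, and higher for KIT, while 1.59% of all genes were called higher and 2.6% lower (2.6% and 1.88% with library totals, where 3 of the 9 were called lower). The average change was -0.95 for PADI2 (SE 0.11), -0.83 for AADAC (SE 0.08), -0.82 for AADACP1 (SE 0.09), -0.77 for GPR153 (SE 0.08), -0.75 for RASSF10 (SE 0.12) and 0.80 for KIT (SE 0.09). Most of each came from 1 treatment. The siMLK4 change was 0.02 with vehicle and -1.91 with doxorubicin for PADI2, 0.06 and -1.56 for RASSF10, -1.50 and -0.04 for GPR153 and 1.71 and -0.12 for KIT. For AADAC it was -0.50 and -1.16, and for AADACP1 -0.34 and -1.30. PADI2, AADAC and AADACP1 were called in all 12 fits without 1 library. As these averages can restate the difference that chose the genes, the calls are no independent evidence. RASSF10, at the edge of the size threshold, lost its call in 7 of these fits, GPR153 in 3 and KIT in 1 (0.74 without siMLK4 vehicle replicate 1), and with library totals in place of the size factors RASSF10 (-0.68) and GPR153 (-0.67) were not called. ADARB2 (-0.60), ARC (-0.61) and ARL14 (-0.59) had averages below the size threshold.

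**Figure D3:**
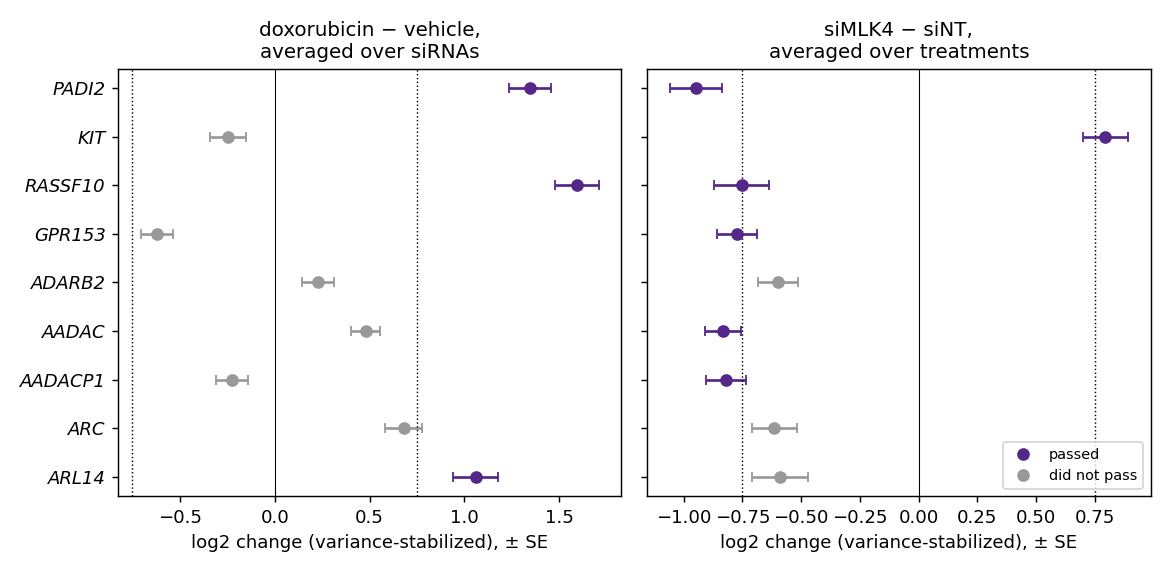
Average doxorubicin effect (left) and average siMLK4 effect (right) on each of the 9 genes, as log2 changes of variance-stabilized values (x axis) ± SE over 12 libraries, with dotted lines at the size threshold of 0.75. Coloured points passed the thresholds, 3 on the left and 6 on the right, where KIT alone lies to the right of 0.

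Per length of exons, the genes were of middling to low abundance. Their order depended on the group. In siNT vehicle GPR153 had the highest level, 10.2 RPKM, before AADACP1 (5.38), and in siNT doxorubicin RASSF10 (13.7), ARL14 (9.20), AADACP1 (8.08) and PADI2 (5.53) stood above GPR153 (4.25). In siMLK4 vehicle AADACP1 (4.30) led before GPR153 (3.50), and in siMLK4 doxorubicin GPR153 (4.37) and RASSF10 (4.26). Averaged over all libraries the level ran from 0.255 RPKM for ADARB2 to 5.57 for GPR153. These averages fell between percentile 10.8 for ADARB2 and 61.0 for GPR153 of all genes. The difference of responses was larger with limma-voom on the recovered reads or on log2(normalized reads + 1). It was larger by over 1.5 times for ADARB2 (to -2.09), ARC (to -1.48) and AADACP1 (to -1.50), and by less for the other 6 genes. The scale of the fit compresses changes of genes with few reads, but its part in these increases was not tested.

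The 9 genes were not alike over the 12 libraries, which share groups and depth, so that correlations are given as a description. PADI2 and RASSF10 had a Pearson r of 0.95, PADI2 and ARC 0.95, and RASSF10 and ARL14 0.94. KIT and GPR153 had an r of -0.73 with each other. For AADAC and AADACP1, neighbours on the chromosome, r was 0.71, and AADAC was closer to ARC, at 0.90. Among the other genes of the table, KIT was most like NYNRIN (r = 0.979), which had 85.7, 126 and 137 normalized reads in siNT vehicle, 174, 192 and 201 in siNT doxorubicin, 489, 402 and 408 in siMLK4 vehicle and 205, 180.1 and 207 in siMLK4 doxorubicin libraries. As with KIT, siMLK4 vehicle stood above the rest and siNT vehicle below. LINC02984 (0.964) and LRATD1 (0.956) came next for KIT.

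The noncoding RNA LINC00702 was the most like gene for both PADI2 (r = 0.975) and RASSF10 (0.981). COMMD10 (0.972) and STEAP4 (0.968), a metalloreductase gene, followed for PADI2, and LINC02073 (0.973) and the cytokine gene IL6 (0.967) for RASSF10. STEAP4 had 96.3, 95.5 and 129 normalized reads in siNT vehicle, 484, 559 and 639.8 in siNT doxorubicin, 68.1, 44.8 and 58.4 in siMLK4 vehicle and 120.4, 107 and 134 in siMLK4 doxorubicin libraries, and it was also among the genes most like ARC (0.949), after TMC1 (0.963) and CD63-AS1 (0.959). IL6 had group means of 2.63, 500.3, 1.75 and 109.9 normalized reads in the same order. For ARL14 the leading genes were ENSG00000276517 (0.977), COMETT (0.97) and H3P30 (0.966).

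AADAC was most like GRAMD1B (0.978), a gene for a sterol transfer protein, with 286, 315 and 285 normalized reads in siNT vehicle, 731, 949.7 and 831 in siNT doxorubicin, 166, 177 and 124 in siMLK4 vehicle and 173, 175 and 165 in siMLK4 doxorubicin libraries. As with AADAC, only siNT doxorubicin stood high and both siMLK4 groups lay below siNT vehicle. INA (0.969) and SYMPK (0.967) followed. AADACP1 was most like TRMT2B (0.964), LIF (0.953), a cytokine gene of the IL6 family, and NQO1 (0.946), which encodes a quinone reductase. GPR153 was most like AJAP1 (0.957), TBL2 (0.955) and ENSG00000249631 (0.946), and ADARB2 was most like IDI1 (0.962), GAS6-DT (0.922) and SRPX2 (0.919).

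IDI1 is also a neighbour of ADARB2, 128.2 kb away on the same strand, and encodes isopentenyl-diphosphate isomerase of the sterol pathway. It had 3856, 3920 and 3552 normalized reads in siNT vehicle and 7355, 7476 and 7369 in siNT doxorubicin libraries. In siMLK4 cells it had 3804, 4026 and 3303 with vehicle and 3249, 3211 and 3406 with doxorubicin. Like ADARB2 it stood high in siNT doxorubicin alone, and its difference of responses was -1.13 (SE 0.14, adjusted p = 0.0023, with adjusted p from 0.0014 to 0.016 over the alternatives), and it was called in 9 of 12 fits without 1 library, 0.016 being the adjusted p without siMLK4 doxorubicin replicate 1. WDR37, which lies between the pair at 16.3 kb from ADARB2, had a difference of -0.22 and was not called. In all, 35 genes were the nearest 2 measured neighbours on each side of the 9 genes or overlapped them, a set drawn up after the data were seen, and IDI1 was the 1 called in the difference of responses. RASSF10-DT, whose annotation begins 157 bases from RASSF10 on the other strand, had -0.44 (adjusted p = 0.29). The 2 noncoding RNAs within ADARB2 had -0.45 for ADARB2-AS1 and -0.75 for ENSG00000282390 (adjusted p = 0.3 and 0.043).

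**Figure D4:**
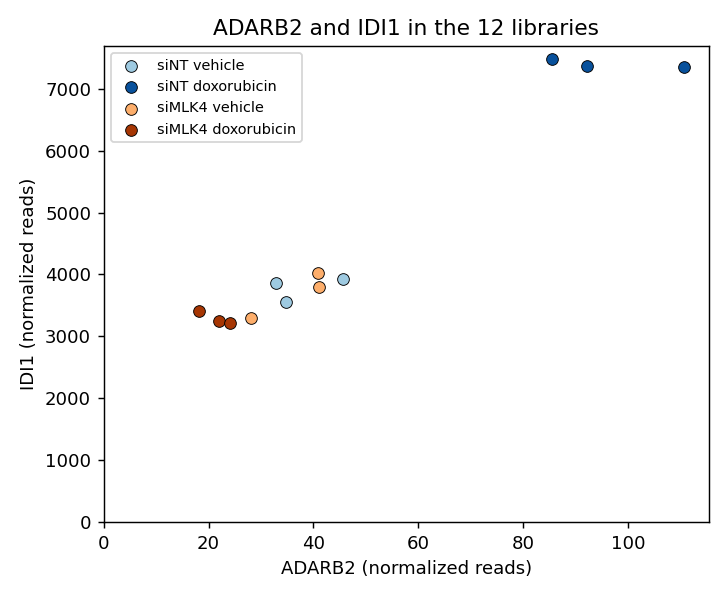
Normalized reads of ADARB2 (x axis) and of its neighbour IDI1 (y axis) in the 12 libraries, 1 point each, coloured by group, on linear axes from 0. The 3 siNT doxorubicin libraries lie apart, at 85.5 to 111 for ADARB2 and 7355 to 7476 for IDI1, and the other 9 reach at most 45.7 and 4026.

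Relatives and partners of the 9 genes were read from 8 lists chosen for what their members do. They held 113 genes, of which 104 were measured, and EGR1 was the 1 gene called in the difference of responses, against 0.276% of all genes. In siNT cells doxorubicin raised 17 and lowered 10 of the 104, or 16.3% and 9.62% against 12.1% and 10.6% of all genes, and in siMLK4 cells 18 and 13, or 17.3% and 12.5% against 12.6% and 10.6%. With siMLK4, 7 were higher and 10 lower with vehicle (6.73% and 9.62%, against 2.51% and 3.14%), and 4 higher and 7 lower with doxorubicin (3.85% and 6.73%, against 2.66% and 2.93%). Averaged over siRNAs doxorubicin raised 19 and lowered 9 (18.3% and 8.65%), and averaged over treatments siMLK4 raised 5 and lowered 10 (4.81% and 9.62%). With library totals the list genes split otherwise, 20 higher and 4 lower with doxorubicin in siNT, 22 and 7 in siMLK4 cells and 20 and 5 on average, and with siMLK4 lower calls no longer exceeded higher ones, at 8 and 8 with vehicle, 6 and 6 with doxorubicin and 6 and 6 on average. The median difference of responses of the 104 was 0.00, and that of all genes was 0.01. Changes of list genes are log2 changes of the variance-stabilized values.

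Of the 6 genes of citrullination, PADI family members and known substrates of the enzymes, doxorubicin raised 1 and lowered 3 in both siRNA groups, and none passed in the difference of responses (median -0.29). PADI1 and PADI3, epidermal deiminases of the same gene cluster, fell with doxorubicin in siNT cells, by 1.21 and 1.05. In normalized reads they were at 35.6% and 41.0% of the vehicle means, where PADI2 was at 7.36-fold. PADI1 fell also with siMLK4, from 367 ± 45.7 (SD, n = 3) normalized reads in siNT vehicle to 78.1 ± 17.1 in siMLK4 vehicle cells, by 1.74 (SE 0.14, adjusted p = 1.4e-06). VIM, which encodes vimentin, rose with doxorubicin in both groups, from 18.6 ± 3.57 to 136 ± 14.7 normalized reads with siNT (7.31-fold) and from 2.74 ± 2.53 to 23.6 ± 2.57 with siMLK4 (8.61-fold; SD, n = 3), although the compressed scale gives 1.62 and 0.93, and it fell with siMLK4 in both treatments. Without siMLK4 vehicle replicate 1, where VIM had 0 reads, its changes of 0.75 with doxorubicin in siMLK4 cells and -0.60 for siMLK4 with vehicle were not called, and with library totals the latter was -0.73 and not called. NPM1, a nucleolar protein gene, fell by 0.84 and 0.99 with doxorubicin.

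Among 21 measured genes of KIT signalling, its ligand, related receptors and effectors, 3 rose and 2 fell with doxorubicin in siNT cells, 3 rose and 1 fell in siMLK4 cells, and none passed in the difference of responses (median 0.00). PDGFRA, the receptor gene next to KIT, rose in both siRNA groups, with normalized reads going from 2.29 ± 2.09 to 24.7 ± 4.09 with siNT and reaching 33.1 ± 8.76 from 2.42 ± 2.13 with siMLK4 (SD, n = 3), with a difference of responses of 0.23 (SE 0.22, adjusted p = 0.71). The kinase gene FYN rose by 1.13 and 1.35, MITF rose and the adaptor gene SHC1 fell in both groups. GAB2, an adaptor gene, fell in siNT cells, by 1.14. With vehicle, siMLK4 raised PIK3R1, which encodes a regulatory subunit of PI3 kinase, by 1.06 (SE 0.21, adjusted p = 0.0024). It raised SOCS1, a feedback inhibitor gene, by 0.76 (SE 0.15, adjusted p = 0.0022). In normalized reads these were 2.2-fold and 3.16-fold, beside the 4.79-fold level of KIT. KITLG, the ligand gene, passed in none of the 4 comparisons between groups.

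Of 18 RASSF family and Hippo partner genes, 2 rose and 2 fell with doxorubicin in siNT cells, 1 rose and 3 fell in siMLK4 cells, and none passed in the difference of responses (median 0.02). RASSF2 rose with doxorubicin in siNT cells by 0.80 (SE 0.12, adjusted p = 8.3e-05), and with siMLK4 by 1.42 with vehicle, where it went from 13.3 ± 3.22 to 95.2 ± 10.6 normalized reads (SD, n = 3), and by 0.78 with doxorubicin. RASSF6 fell with doxorubicin in both groups, by 0.77 and 1.40, and RASSF7 fell in siNT cells, by 0.76. RASSF8 fell with siMLK4, by 1.31 with vehicle and 1.16 with doxorubicin, to 36.6% and 42.9% of the siNT means, and it rose with doxorubicin in both siRNA groups. RASSF6 fell with siMLK4 under doxorubicin, by 1.09, where RASSF7 was called higher at 0.75, the edge of the size threshold, but not with a replicate block (adjusted p = 0.018 with limma), with 75th percentile scaling, with a mean of at least 20 reads or in 8 of 12 fits without 1 library. RASSF4 rose by 0.87 with siMLK4 in vehicle cells, and it fell by 0.76 with doxorubicin in siMLK4 cells, as RASSF9 did by 0.76.

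Of 10 orphan receptor genes related to GPR153, 9 were measured. Doxorubicin raised 2 and lowered 1 in siNT cells and raised 2 and lowered 4 in siMLK4 cells, and none passed in the difference of responses, whose median was -0.45. GPR162, its close relative, rose with siMLK4 in vehicle cells, from 10.5 ± 4.47 to 75.2 ± 13.5 normalized reads (SD, n = 3), by 1.31 (SE 0.16, adjusted p = 5.8e-05), where GPR153 stood at 31.3% of siNT. GPRC5B rose likewise by 1.22, and it fell with doxorubicin by 0.83 in siNT and 1.29 in siMLK4 cells. GPRC5A rose by 1.08 with doxorubicin in siNT cells and fell by 0.96 with siMLK4 under doxorubicin. GPR39 fell with doxorubicin in siMLK4 cells, by 0.92.

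Of 7 RNA editing enzyme genes 5 were measured, none passed in siNT cells or in the difference of responses (median -0.15), and in siMLK4 cells doxorubicin raised ADARB1, the gene of the catalytically active relative ADAR2, by 0.77 (SE 0.20, adjusted p = 0.0041) and lowered the tRNA deaminase gene ADAT2 by 0.86. Of 9 genes of the AADAC family and carboxylesterases 6 were measured, and none passed with doxorubicin in either group or in the difference (median -0.26). NCEH1, a cholesterol ester hydrolase gene of the AADAC family, rose with siMLK4 by 1.32 with vehicle and 1.23 with doxorubicin, from 478 ± 74.3 to 1274 ± 185 normalized reads with vehicle (SD, n = 3). CES1, a liver carboxylesterase gene, fell by 0.76 with siMLK4 under doxorubicin.

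Of 20 measured immediate early genes, the class to which ARC belongs, 9 rose and 1 fell in siNT cells and 9 rose in siMLK4 cells. The 9 were 45% of the list in each siRNA group, against 12.1% and 12.6% of all genes called higher. EGR1, a zinc finger transcription factor gene, had 477, 369 and 518 normalized reads in siNT vehicle, 717, 654 and 699.6 in siNT doxorubicin, 98.2, 95.7 and 89.7 in siMLK4 vehicle and 419, 355 and 441 in siMLK4 doxorubicin libraries. Its siMLK4 vehicle libraries stood below the others, and its difference of responses was 1.10 (SE 0.17, adjusted p = 0.0074), opposite in sign to that of ARC. This call held in 1 of 12 fits without 1 library, the adjusted p lying between 0.0039 and 0.036 over the alternatives and reaching 0.036 without siMLK4 doxorubicin replicate 1. ATF3, a stress-responsive factor gene, rose in both siRNA groups, by 2.16 and 3.02, FOSB by 1.93 and 1.25 and JUN by 0.82 and 1.60. With siMLK4 in vehicle cells 6 of the 20 fell (EGR1, FOS, FOSL1, IER3, JUN and KLF4), or 30% against 3.14% of all genes. With siMLK4 under doxorubicin FOSL1 fell, or 5% against 2.93%. The median difference of responses of the list was 0.20.

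Of 19 ARF-like GTPase genes and partners of ARL14, 1 fell with doxorubicin in siNT cells, 1 rose and 1 fell in siMLK4 cells, and none passed in the difference of responses (median 0.00). ARL1, a Golgi GTPase gene, fell by 0.80 (SE 0.10) in both groups.

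**Figure D5:**
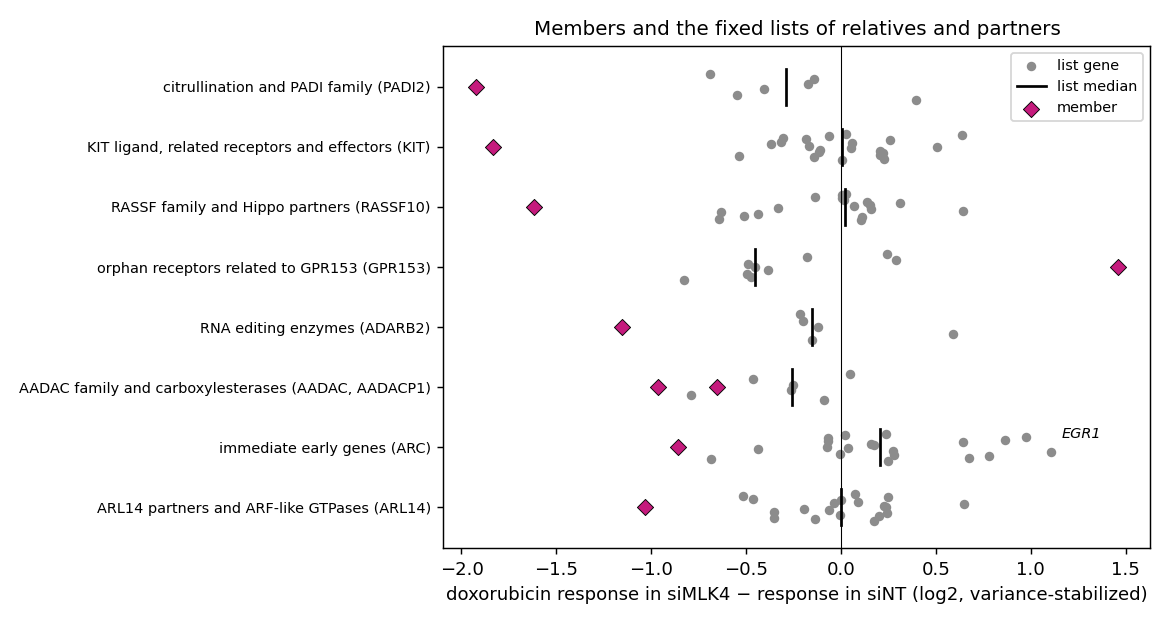
Difference of doxorubicin responses (x axis, response in siMLK4 minus response in siNT cells, log2 of variance-stabilized values) of the genes in 8 lists (rows), with grey points for list genes, a black bar for the list median and diamonds for the related gene or genes among the 9. The 9 genes lie outside most of their lists by their choice, and EGR1, at 1.10, is the 1 list gene that passed the thresholds.

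Promoter sequence was looked at because several of the genes moved together. RefSeq (GRCh38.p14) gave the 250 bases before and 50 bases after the start of PADI2, KIT, GPR153, ADARB2 and AADAC. RASSF10, AADACP1, ARC and ARL14 were not matched. Printed are 4, PADI2 and AADAC as genes highest in siNT doxorubicin, and KIT and GPR153 as those highest in other groups, each 5′ to 3′ on the strand of its gene. Capitals mark a GC box (GGGCGG) or a CCAAT motif, on either strand, as CCGCCC or ATTGG on the other one.
PADI2, chr1:17119402-17119701, - strand: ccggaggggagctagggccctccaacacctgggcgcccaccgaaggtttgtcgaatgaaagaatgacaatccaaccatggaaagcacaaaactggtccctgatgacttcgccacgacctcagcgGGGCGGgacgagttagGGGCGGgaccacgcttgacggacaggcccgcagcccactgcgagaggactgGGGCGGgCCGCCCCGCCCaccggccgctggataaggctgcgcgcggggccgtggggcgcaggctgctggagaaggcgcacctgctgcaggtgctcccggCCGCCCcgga
AADAC, chr3:151813866-151814165, + strand: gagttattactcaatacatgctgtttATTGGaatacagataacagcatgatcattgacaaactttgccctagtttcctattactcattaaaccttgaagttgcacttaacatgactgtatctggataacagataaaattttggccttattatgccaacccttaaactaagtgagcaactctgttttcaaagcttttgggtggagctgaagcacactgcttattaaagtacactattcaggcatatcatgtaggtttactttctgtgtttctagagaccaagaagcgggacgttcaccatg
KIT, chr4:54657707-54658006, + strand: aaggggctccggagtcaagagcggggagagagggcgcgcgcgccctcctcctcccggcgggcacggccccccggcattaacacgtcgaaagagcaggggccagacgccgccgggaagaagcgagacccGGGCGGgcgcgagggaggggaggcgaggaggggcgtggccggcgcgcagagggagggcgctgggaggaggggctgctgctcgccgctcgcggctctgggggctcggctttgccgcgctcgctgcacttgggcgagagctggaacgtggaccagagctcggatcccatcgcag
GPR153, chr1:6261049-6261348, - strand: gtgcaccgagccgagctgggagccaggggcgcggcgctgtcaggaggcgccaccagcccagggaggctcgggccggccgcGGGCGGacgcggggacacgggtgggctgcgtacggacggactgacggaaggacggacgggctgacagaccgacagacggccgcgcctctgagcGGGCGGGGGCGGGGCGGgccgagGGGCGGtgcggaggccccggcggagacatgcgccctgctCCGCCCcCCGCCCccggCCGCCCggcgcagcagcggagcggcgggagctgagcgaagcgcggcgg
The windows differed in composition. G and C made up 69.0% of the bases for PADI2, 74.3% for KIT and 80.7% for GPR153, against 37.3% for AADAC, and 62.0% for ADARB2. GC boxes, found in 64.5% of 17305 promoters, numbered 6 for PADI2, 1 for KIT and 8 for GPR153, where adjoining boxes can share a base. CCAAT, found in 34.7%, matched once in AADAC and at 2 places in ADARB2. None of the 5 windows held TGANTCA, the AP-1 motif (5.51% of all promoters), the NF-κB motif (2.06%), TATAAA, the TATA box (6.81%), or TGACGTCA, the CRE (2.7%), which says only that these letters are not in these windows.

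Seed matches of the 4 siRNAs shown above were sought in the 3′UTRs of the 9 genes, which GENCODE annotates for 8 and from which the sites below are read. The words that pair with the seeds occur in 17.6, 11.4, 17.3 and 20.4% of 13583 3′UTRs for siRNAs 1 to 4, and any of them in 44.3%. Of the 8, 4 held a word, ARC for siRNA 1, RASSF10 for siRNA 3, and PADI2 and ADARB2 for siRNA 4. The median 3′UTR length was 1768 bases for the 8 and 1310 for all. The sites are shown with the word in capitals and 8 bases on either side, for the 3 genes whose sequence is given, at base 224 of the 1019 bases of the RASSF10 3′UTR, at 302 of 2283 for PADI2 and at 3896 of 5880 for ADARB2.
RASSF10: attaaagaGAGGGAAggagggag
PADI2: ctgctcccCAAAGAAttttgagt
ADARB2: ttccttttCAAAGAAacacacag
With vehicle, the siNT and siMLK4 libraries of PADI2, RASSF10 and ADARB2 overlapped and ARC lay below siNT in siMLK4 cells, and with doxorubicin all 4 lay below siNT. KIT, GPR153, AADAC and ARL14 held no word in their 3′UTRs. Of these, AADAC and ARL14 also lay below siNT with doxorubicin, where KIT and GPR153 overlapped with it. With vehicle GPR153 and AADAC lay below siNT, ARL14 overlapped and KIT lay above. AADACP1, which has no annotated 3′UTR, held no word in its transcript and lay below siNT in both treatments. A match is a description of the sequence, and the part of the siRNA seeds in the results was not tested.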

How the data were processed

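Libraries of HCC1806 cells were made from polyadenylated RNA with a strand-marking kit and sequenced as pairs. The submitters' processing notes name Trimmomatic 0.39, HISAT2, HTSeq 0.6.0 and DESeq2 1.26.0, and per the study's methods optical duplicates were removed and reads were counted by strand. These notes name hg19 whereas the methods name GRCh38. Coordinates here are those of GENCODE release 44 (GRCh38), matched by gene ID. The authors deposited log2 values that had passed a variance-stabilizing transformation. Inverting it, with 4.7603 as the value of 0 reads, gave whole reads within 0.05 for 100% of values and size factors of 0.852 to 1.20. The table was already filtered, the lowest of all genes' highest group means being 10.67 normalized reads.

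The log2 values were fitted with limma 3.58.1 in R 4.3.3 (lmFit, eBayes with a variance trend, 4 group means, 12 libraries). P-values were adjusted over 17013 genes by the Benjamini-Hochberg method, and calls asked for a log2 change of more than 0.75 in size with an adjusted p below 0.01. For the 9 genes p-values of the average effects, planned as tests, are not given, since these effects can restate the difference that chose the genes. The code was tested on simulated data. Alternatives were log2(normalized reads + 1), limma-voom, no trend, 2 other scalings, a mean of at least 20 reads, a replicate block, another threshold and leaving out each library. The 9 genes, lists and thresholds were chosen with earlier results of these data known. Besides the 9 genes and MAP3K21, named were the 3 genes most correlated with each, and up to 5 genes a list that passed in a comparison, those with the largest absolute difference of responses, and after their values were seen some others that passed, KITLG, and the neighbours. Some list genes are not reported here by name. Samples were grouped by their labels and none was left out.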

Additional observations from a re-analysis of the deposited data

Results flagged for a closer look

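EGR1 was singled out because its difference of responses passed the thresholds in the fit used here, at 1.10 on the log2 scale. Every siMLK4 vehicle library (89.7 to 98.2 normalized reads) lay below the other 9 (355 to 717). The EGR1 call held in only 1 of 12 fits without 1 library, and it was lost with 75th percentile scaling. For 3 of the 9 genes and 2 of the 104 list genes, doxorubicin moved opposite ways in the siRNA groups. That is, doxorubicin libraries all lay on one side of vehicle libraries in siNT cells and on the other in siMLK4 cells. This was so for 0.682% of all 17013 genes. The 9 genes were chosen for such a difference, so the 3 among them are not set against that share. Among the 9 genes these were KIT (-1.83), ADARB2 (-1.15) and AADACP1 (-0.97), where the difference chose the genes and is a description. Among the list genes they were STAT5B (0.64) and CES1 (-0.79). STAT5B had 603 to 690.4 normalized reads in siNT vehicle, 526 to 589 in siNT doxorubicin, 355 to 394 in siMLK4 vehicle and 454 to 600.4 in siMLK4 doxorubicin libraries, and its difference missed the threshold (limma adjusted p = 0.068). CES1 had 301 to 311, 370.1 to 442, 273 to 359 and 197 to 261 in the same order (limma adjusted p = 0.043).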

How the results depend on the processing

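No average effect and no difference of responses of the 9 genes changed sign. Between single groups 5 values near 0 did, those of ADARB2, ARL14, PADI2 and RASSF10 for siMLK4 with vehicle and of GPR153 for siMLK4 with doxorubicin. The balance of calls for siMLK4 was not stable. In the fit used here lower calls exceeded higher ones (534 and 427 with vehicle, 498 and 452 with doxorubicin, 443 and 271 on average). Higher calls exceeded lower ones with library totals (632 and 346, 623 and 396, 442 and 320) and with limma-voom (786 and 697, 743 and 723, 1049 and 791). With log2(normalized reads + 1) the balance turned with vehicle (895 higher, 718 lower) and on average (1093 and 790) but not with doxorubicin (686 and 695). With 75th percentile scaling it turned with vehicle alone (562 and 417, against 470 and 496 with doxorubicin and 333 and 388 on average). With an adjusted p under 0.05 and no size threshold, it turned with doxorubicin (2158 higher, 2061 lower) and on average (3560 and 3179), not with vehicle (2164 and 2217). Leaving out siMLK4 doxorubicin replicate 3 gave 569 higher and 552 lower with doxorubicin. Counts in the difference of responses depended on single libraries, and other counts on scale and threshold. With log2(normalized reads + 1), limma-voom and an adjusted p under 0.05 without a size threshold, in this order, genes called numbered 6283, 6278 and 11832 in place of 3812 for the average doxorubicin effect, and 1883, 1840 and 6739 in place of 714 for the average siMLK4 effect. The same settings gave 1613, 1483 and 4381 in place of 961 for siMLK4 with vehicle, and 5, 5 and 9 of the 9 genes in place of 3 for average doxorubicin. For the difference of responses limma-voom gave 29 and the looser threshold 204 in place of 47, and for siMLK4 with doxorubicin they gave 1466 and 4219 in place of 950. The looser threshold alone gave 9745 in place of 3859 for doxorubicin in siNT and 9858 in place of 3949 in siMLK4 cells. Of list genes, those called in the difference went from 1 to 0 with 75th percentile scaling and to 3 with the looser threshold. Leaving out each library gave 0 to 37 genes called in the difference, 0 to 1 list genes, 3629 to 4024 for average doxorubicin (3 to 3 of the 9), 682 to 771 for average siMLK4 (4 to 6 of the 9), 3602 to 4186 and 3508 to 4419 for doxorubicin in siNT and siMLK4 cells, and 929 to 1016 and 761 to 1121 for siMLK4 with vehicle and doxorubicin. Equally numbered replicates correlated above 0.1 in all 3 pairs between siNT vehicle and siNT doxorubicin (0.11 to 0.46) and between siNT and siMLK4 doxorubicin (0.19 to 0.56), and not in the other 4 pairs of groups (lowest -0.72), so the numbers were not taken to pair samples over the 4 groups. The replicate block gave 40 calls for the difference (4 of the 9 genes in place of 5), 3854 in place of 3859 for doxorubicin in siNT and 945 in place of 950 for siMLK4 with doxorubicin. ARC passed in the average doxorubicin effect with library totals, log2(normalized reads + 1) and limma-voom. With limma-voom all 9 passed in the average siMLK4 effect, and 4 did with library totals or 75th percentile scaling. The genes with few reads, ARC and ADARB2, carry the largest counting error. The cause of these changes was not tested.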
